A study of Mus musculus with 63 samples.

Results

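The comparison set CaMKII-mDlx double-positive libraries against CD11b-positive libraries of the same mice. The members were all mice whose number stands in the titles of both populations, other than mouse 3 and mouse 8, whose paired libraries were left out. This gave 14 mice (mouse 2, 7, 10, 13 and 15 to 24) and 28 of the 63 libraries in the series.

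Every mouse was a female C57BL/6J mouse, 12 weeks old on arrival, with no gene targeted. All of them, sham mice included, received a mixture of AAV5-CamKII-eGFP and AAV1-mDlx-mRuby2 in both primary motor cortices. The former drives a green fluorescent protein from the CaMKII promoter and the latter a nuclear red one from the mDlx enhancer, and these sequences are used to mark excitatory and inhibitory neurons. A burn over 7 to 8% of the body surface followed in 8 of the mice, and sham treatment, which was shaving alone, in the other 6. Cortex was taken 5 weeks later. Double-positive cells were sorted from the injected motor cortex by both fluorescent signals, without an antibody to a surface protein. CD11b-positive cells were sorted from cortex caudal to it, after staining for CD11b and for the astrocyte antigen ACSA2. Population, cortical region, injection, staining and gate therefore changed together, and their parts in a difference cannot be told apart.

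Microglia are the resident macrophages of the brain parenchyma, kept alive through the receptor Csf1r and guided to sites of damage by the purinergic receptor P2ry12. CD11b, the integrin chain encoded by Itgam, is carried by microglia and also by macrophages of the brain borders, monocytes, neutrophils and natural killer cells, so that a CD11b gate can hold any of them. Interferon-stimulated genes, which restrict viruses, and the genes of antigen presentation are programmes that all of these cells can switch on.

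The double-positive libraries held 14156588 to 39992532 counts and the CD11b-positive libraries 16531118 to 47928704. Totals were lower in the double-positive library in 10 of 14 mice (exact sign-flip permutation test, two-sided, p = 0.0271). Genes with at least 10 counts numbered 16393 to 19492 and 16745 to 18914 (exact p = 0.0986). On the 500 most variable genes, the first principal component took 49.1% of the variance and separated the populations, from -46.6 to -17.7 in CD11b-positive and from 16.7 to 43.4 in double-positive libraries. The double-positive library of mouse 10 stood apart on the next component at -63.2, where the other 27 libraries lay between -25.2 and 26.8, so the tests over all 14 mice were also run without it. Of the mice, 10 belonged to batch 3 of the sequencing (5 burn and 5 sham) and 4 to batches 1 and 2 (3 burn and 1 sham).

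The libraries of the gate set by the neuronal vectors did not have the marker profile of neurons, and were above all rich in microglial RNA. Csf1r (ENSMUSG00000024621) lay at 4299, 5154 and 8905 CPM (lowest, median and highest of 14; CPM are counts scaled to the total count of the library) in the double-positive libraries, and P2ry12 (ENSMUSG00000036353) at 1770, 2149 and 2863 CPM. Slc17a7, the vesicular glutamate transporter of excitatory neurons, lay at 1.32, 2.88 and 5.54 CPM in the same libraries, a low level beside those of the microglial genes. The 12 measured markers of inhibitory neurons together reached 1.05 to 4.85 CPM, and 8 of them had a median of 0. Across 18093 genes the mean profile of the double-positive libraries followed that of the CD11b-positive libraries (Spearman's rho 0.977) more closely than that of the CaMKII-positive (0.756) or ACSA2-positive (0.679) libraries. The latter came from all 14 mice and the CaMKII-positive libraries from 9 of them. The CaMKII-positive libraries were no profile of neurons alone: their astrocyte and endothelial markers had median sums of 33029 and 7531 CPM. Excitatory markers there had a median sum of 140 CPM and inhibitory markers one of 15.3 CPM. The cells are called double-positive below as a name for the gate only. In bulk libraries, fewer cells of a type and less RNA per cell cannot be told apart.

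**Figure D1:**
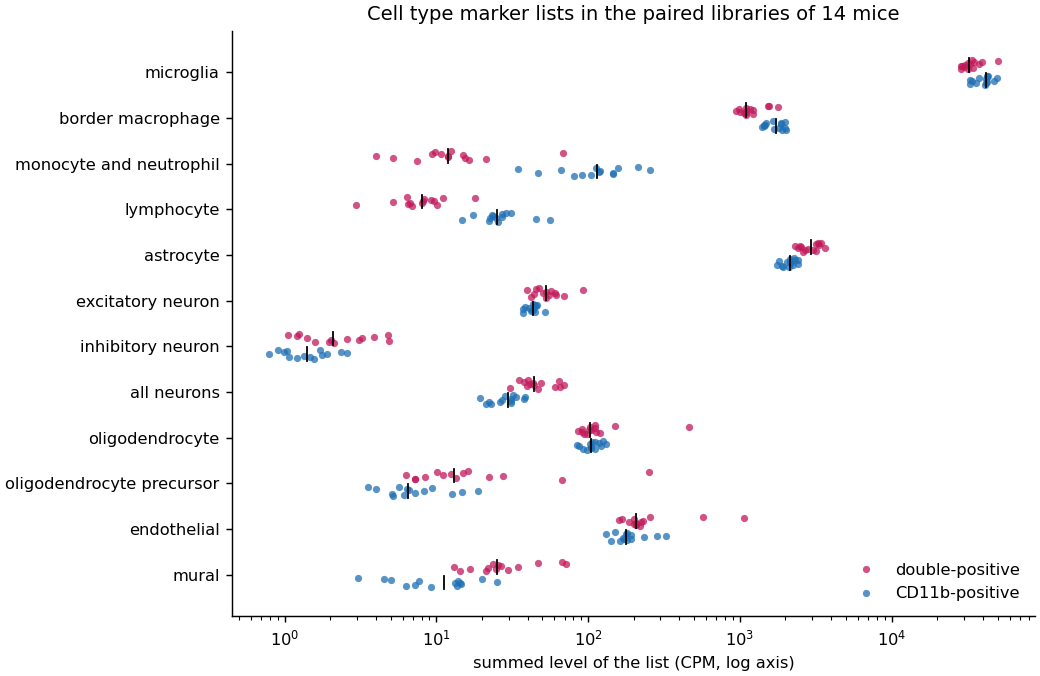
Summed level of each list of cell type markers in CPM (logarithmic axis), with 1 point per library and a bar at the median, for 14 double-positive and 14 CD11b-positive libraries. The microglial sums overlap between the populations (28483 to 50385 and 32738 to 49347 CPM), while the monocyte and neutrophil sums overlap only through the double-positive library of mouse 10 at 68.4 CPM.

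Which genes differed between the populations was asked with edgeR's quasi-likelihood test with mouse as a block over 28169 genes, where genes counted as higher or lower had an absolute log2FC (double-positive over CD11b-positive) of 1 or more and an adjusted p no larger than 0.05. In the double-positive libraries 746 genes were higher (2.65% of those tested) and 346 were lower (1.23%). At any fold change, 1508 genes were higher (5.35%) and 1994 lower (7.08%), and the median log2FC over all genes tested was 0.10. Of the 746 higher genes, 670 (89.8%) also had a higher mean in the ACSA2-positive libraries of the same mice than in the 28 libraries, against 47% of all genes tested. Of the 346 lower genes, 279 (80.6%) had a lower mean in the ACSA2-positive libraries than in the 28 libraries, against 53% of all genes tested. Batch 3 alone gave 474 higher (1.79%) and 360 lower genes (1.36%), whereas the 4 mice of batches 1 and 2 gave 237 higher (0.935%) and 0 lower genes.

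**Figure D2:**
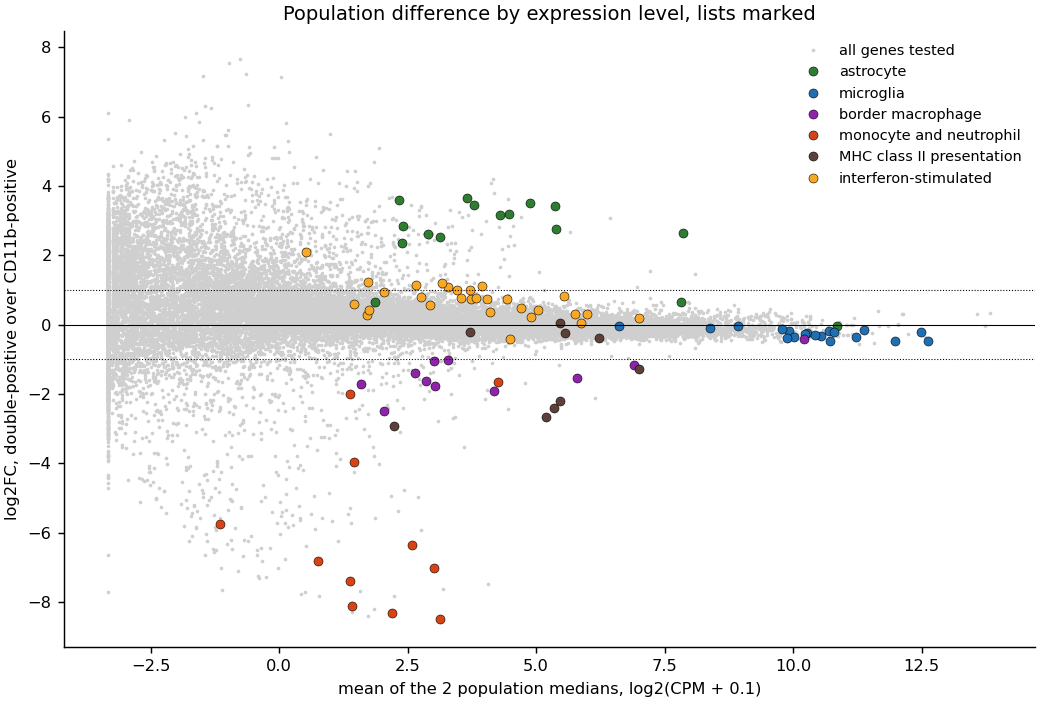
Population difference of each gene (log2FC, double-positive over CD11b-positive) against its level (mean of the 2 population medians, log2 of CPM + 0.1), with 6 lists coloured and dotted lines at a log2FC of -1 and 1. Astrocyte genes lie up to 3.67 above 0, microglial genes between -0.48 and -0.03 at the highest levels, and monocyte and neutrophil genes down to -8.48.

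Genes that define microglia were slightly lower in the double-positive libraries. Csf1r was at 5358, 7456 and 9727 CPM in the CD11b-positive libraries, and the ranges of the populations overlapped. Its log2FC was -0.48 (SE 0.07, adjusted p = 5.2e-05), lower in 12 of 14 mice, with the opposite sign in mice 7 and 17. P2ry12 was at 2111, 2622 and 3347 CPM, a log2FC of -0.37 (SE 0.07, adjusted p = 0.00058), and the same pair of mice stood out. None of the 19 microglial markers passed the fold threshold in either direction, and 12 were lower at any fold, with a median log2FC of -0.23. The chemokine receptor gene Cx3cr1 (log2FC -0.46) and Selplg (-0.47), which encodes the ligand of P-selectin, lay at the low end. Sall1, a transcription factor of microglial identity, was at -0.27. Tmem119 was at -0.30. Trem2, a lipid receptor of microglia, did not pass, at 435, 481 and 767 CPM against 423, 496 and 620 CPM.

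Itgam itself, which chose the CD11b-positive cells, was at 135, 167 and 213 CPM in the double-positive and 176, 226 and 251 CPM in the CD11b-positive libraries. It was lower in the double-positive library of all 14 mice, and this is given as a description.

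A wider homeostatic set behaved alike: of 20 genes, 14 were lower at any fold and 0 past the fold threshold, with a median of -0.28. Sparc, a matricellular protein gene, reached 1180, 1390 and 2047 CPM against 1622, 1986 and 2599 CPM, the lowest log2FC of this set at -0.53 (adjusted p = 2.6e-05). Tgfbr1, a receptor for TGF-beta, was at -0.30. Of 24 lysosomal genes 13 were lower at any fold (median -0.20), among them Laptm5, a lysosomal membrane protein of blood cells, at 2183, 2453 and 3271 CPM against 2312, 3645 and 4777 CPM (log2FC -0.53). Ctsd, a lysosomal protease, was at -0.23. Lrp1, a scavenging receptor, was lower in all 14 mice at -0.55. Taking library size alone as the scale, which raised the median log2FC of all genes from 0.10 to 0.16, left 9 of the 19 microglial and 11 of the 20 homeostatic genes lower at any fold (background 4.36%). Batches 1 and 2 alone called 0 of either list lower at any fold (background 0.0158%), with medians of -0.22 and -0.24.

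**Figure D3:**
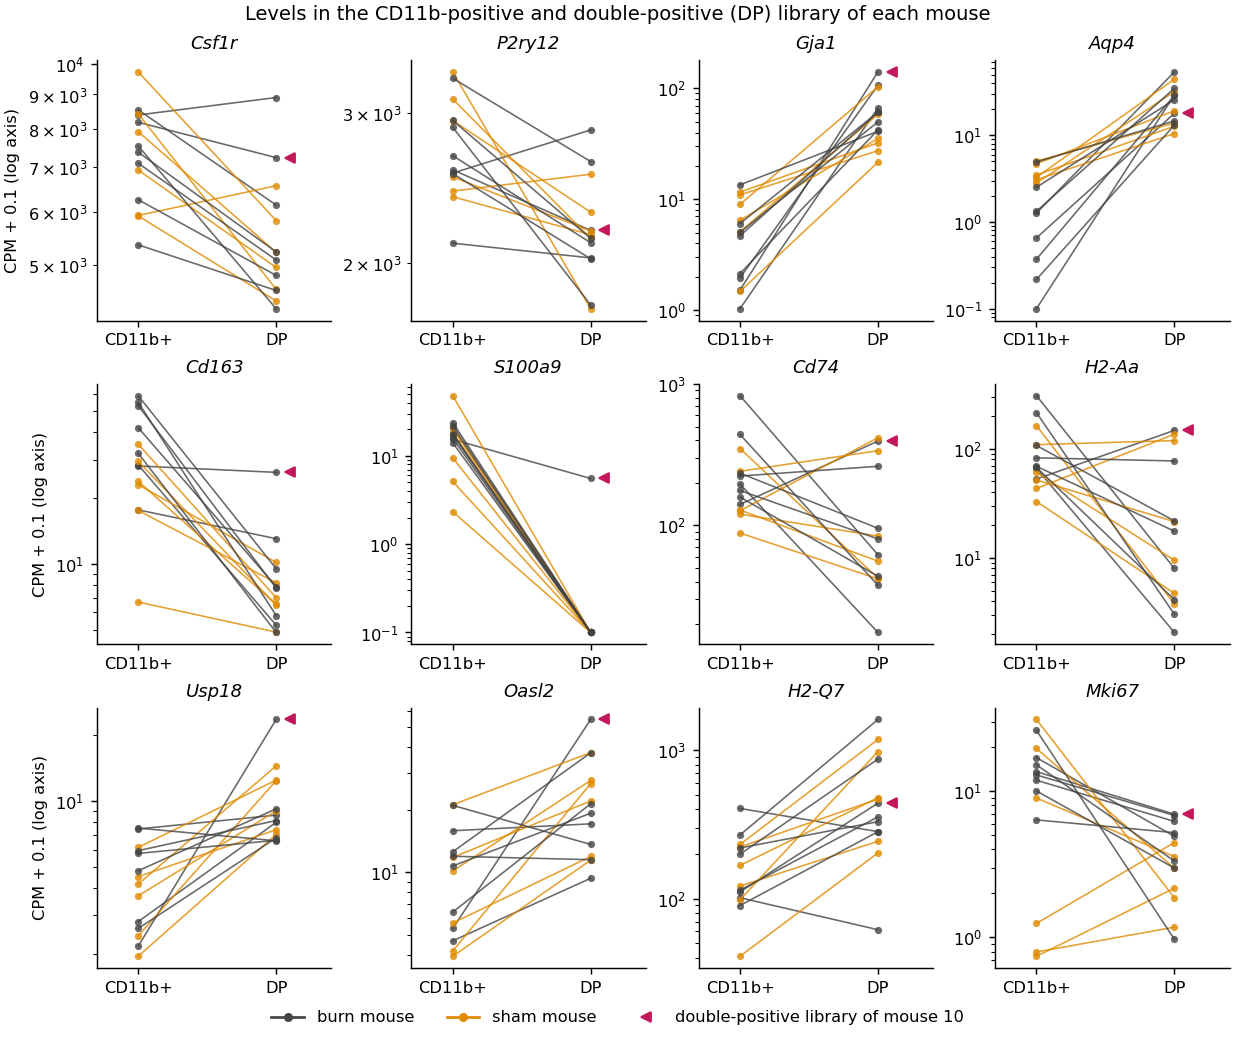
Level of 12 genes (CPM + 0.1, logarithmic axes) in the CD11b-positive (CD11b+) and double-positive (DP) library of each mouse, joined by a line (dark for 8 burn mice, orange for 6 sham mice), with an arrowhead at the double-positive library of mouse 10. Gja1 and Aqp4 are higher in all 14 mice, S100a9 is at 0 in 13 double-positive libraries, and H2-Aa is higher in 3 mice.

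Most astrocyte markers were higher in the double-positive libraries. Gja1 (ENSMUSG00000050953), the main connexin of astrocytes, was at 21.5, 54.0 and 141 CPM in the double-positive and 0.929, 4.96 and 13.4 CPM in the CD11b-positive libraries. The ranges did not overlap, and the log2FC was 3.52 (SE 0.35, adjusted p = 9.8e-08). Aqp4, the water channel of astrocytic endfeet, was at 10.4, 22.4 and 53.8 CPM against 0, 2.57 and 4.95 CPM, also without overlap (log2FC 3.67, SE 0.45). Of 16 astrocyte markers 13 were higher and 0 lower, with a median log2FC of 2.80, and the 13 calls held in batch 3 alone and without each mouse in turn. Their levels were low beside sorted astrocytes: the median marker in the double-positive libraries was at 1.62% of its ACSA2-positive level, against 0.186% in the CD11b-positive libraries. Slc1a2, a glutamate transporter, was at 172, 410 and 627 CPM against 31.3, 51.9 and 96.7 CPM, while its median in the ACSA2-positive libraries was 21996 CPM. Gfap, the astrocytic filament gene, was at 1.98, 4.24 and 13.7 CPM against 0.382, 2.85 and 9.65 CPM and did not pass (adjusted p = 0.19). Glul, the glutamine synthetase gene, was at 1591, 1856 and 2166 CPM against 1538, 1861 and 2191 CPM, and the ranges were nearly the same.

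Under the rule for named genes, which leaves out symbols that are a Gm number or a clone name, 41 higher genes moved the same way in all 14 mice with a mean of at least 10 CPM. Among the 12 with the largest log2FC were Gpr37l1 (4.21), Htra1 (4.08), Luzp2 (3.81), Aqp4, Gja1, Slc6a11 (3.50), Fgfr3 (3.45), Clu (3.41), Tril (3.31), Scg3 (3.25) and Atp1b2 (3.18). Slc6a11 encodes a transporter of GABA, Htra1 a secreted protease, and Clu a secreted chaperone. Gpr37l1, a receptor of astrocytes, was at 15.1, 33.8 and 65.2 CPM against 0.274, 1.92 and 5.14 CPM, with no overlap. Atp1b2, which encodes the antigen that ACSA2 antibodies bind, was at 19.8, 39.5 and 91.7 CPM against 1.29, 4.73 and 9.97 CPM, again with no overlap. The CD11b-positive cells were sorted after staining for ACSA2, so the values of Atp1b2 are a description. All 12 had a median of 1190 CPM or more in the ACSA2-positive libraries. Restricted to genes whose mean was lower in the ACSA2-positive libraries, the same rule left 0 higher genes. With symbols of every kind 1 remained, Gm15964, chosen after its values were seen, at 7.61, 13.7 and 34.9 CPM against 4.36, 7.21 and 11.0 CPM (log2FC 1.04, adjusted p = 1.4e-05). It fell just short of the fold threshold without any 1 of mice 15, 19, 20 and 24 (0.98 to 0.99).

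Other non-myeloid markers were higher in smaller numbers. Of 10 excitatory markers 2 were higher (Fezf2 and Slc17a7), as were Map2 and Snap25 of 11 genes of all neurons and 0 of 12 inhibitory markers, against 2.65% of all genes tested. Snap25, a protein of synaptic vesicle fusion, was at 2.49, 6.98 and 15.5 CPM against 1.61, 2.75 and 6.90 CPM (log2FC 1.20, SE 0.30, adjusted p = 0.0081), and the ranges overlapped. Its log2FC was -0.17 in batches 1 and 2 alone (adjusted p = 0.90) and 1.76 in batch 3 alone, and it was not called in burn mice alone (0.98, adjusted p = 0.21) or with the pairs of mice 3 and 8 added (1.01, adjusted p = 0.060). Camk2a, the source of the promoter in the excitatory vector, was at 12.1, 21.6 and 52.0 CPM against 10.1, 14.6 and 18.3 CPM (log2FC 0.59, adjusted p = 0.0036). Slc17a7 (log2FC 1.44, adjusted p = 0.025) missed the threshold without mouse 21 (adjusted p = 0.054). It was also not called in burn mice alone (adjusted p = 0.16), in sham mice alone (0.080) or with the pairs of mice 3 and 8 added (0.095). In batches 1 and 2 alone its log2FC was 0.096 (adjusted p = 0.96). Precursors of oligodendrocytes contributed Gpr17, Neu4 and Olig1 of 9 markers, oligodendrocytes 2 of 10, Cldn11 among them, and mural cells Pdgfrb and Rgs5 of 9. Gpr17, a receptor of committed precursors, was at 0.272, 2.18 and 47.2 CPM against 0, 0.618 and 3.13 CPM, with its highest value in mouse 10, and did not pass without that mouse (log2FC 1.35, adjusted p = 0.058). Without mouse 10 the calls of Neu4 (log2FC 2.90 in all mice and 2.61 without it, adjusted p = 0.15) and Cldn11 (3.92 and 4.35, adjusted p = 0.058) were lost too, that of Neu4 also without any 1 of mice 2, 13, 17, 20, 23 and 24, and the precursor list had 1 higher member, Olig1, against 5 without mouse 19 or 22. Of 12 endothelial markers 0 passed both thresholds, 11 had a positive log2FC and the median was 0.43. At any fold 1 was higher and 1 was lower, the latter being Pecam1, an adhesion protein (log2FC -0.35). The list's median difference per mouse ran from 0.09 to 5.17 in batches 1 and 2, above 0 in 4 of 4 mice, and from -1.82 to 0.83 in batch 3, above 0 in 4 of 10.

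Transcripts that mark macrophages of the brain borders were lower in the double-positive libraries. Cd163 (ENSMUSG00000008845), a haemoglobin scavenger receptor of these cells, was at 4.76, 7.28 and 26.2 CPM against 6.59, 28.9 and 58.9 CPM. The ranges overlapped, but the double-positive library was the lower in all 14 mice (log2FC -1.92, SE 0.22, adjusted p = 8.1e-07; -2.06 without mouse 10). Mrc1, the mannose receptor, was at 47.0, 71.6 and 186 CPM against 52.1, 169 and 282 CPM (log2FC -1.16, adjusted p = 3.8e-05), higher only in mouse 10. Of 11 border macrophage markers 10 were lower past the fold threshold, with a median log2FC of -1.54. Lyve1, a hyaluronan receptor, was at -1.78, and Clec12a, an inhibitory lectin, was the lowest at -2.49. Pf4, a platelet chemokine, was at -1.39 and F13a1, a clotting factor subunit, at -1.54. Stab1, a scavenger receptor that microglia express too, was lower at any fold (830.6, 1010 and 1450 CPM against 1047, 1360 and 1597 CPM, log2FC -0.42). In batch 3 alone 10 of the 11 were lower (background 1.36%), with a median log2FC of -1.84. The median was -0.67 in batches 1 and 2 alone, where 0 of the 25338 genes tested were called lower.

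Neutrophil and natural killer transcripts were at or near 0 in most double-positive libraries, and monocyte transcripts were lower. S100a9 (ENSMUSG00000056071), a calcium-binding protein of neutrophils, was at 2.23, 17.4 and 47.9 CPM in the CD11b-positive libraries and at 0 in 13 of 14 double-positive libraries, where a count of 0 allows at most 0.212 CPM. The remaining library, of mouse 10, held 5.45 CPM. All 11 monocyte and neutrophil markers were lower, from -1.66 in Ccr2, a chemokine receptor of monocytes, to -8.48 in S100a9, and a log2FC against libraries at 0 depends on the prior count of the fit. Without mouse 10, which held the only nonzero double-positive value, that of S100a9 was -11.68. Ccr2 was at 3.24, 9.39 and 25.9 CPM against 13.4, 28.7 and 53.5 CPM, and the ranges overlapped. S100a8, the partner of S100a9, was at 0 in 10 double-positive libraries. Of 11 lymphocyte markers 5 were lower, among them Gzma and Nkg7, of natural killer and cytotoxic cells, and Cd79a and Ms4a1, of B cells. Gzma was at 2.13, 6.43 and 23.0 CPM in the CD11b-positive libraries and at 0 in 13 double-positive libraries.

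Of the lower genes, 4 moved the same way in all 14 mice with a mean of at least 10 CPM. They were the neutrophil granule genes Ltf (log2FC -7.63) and Ngp (-7.48), Cd163, and Cnn2, an actin-binding calponin, at -1.24. Without mouse 10 Ltf was at -8.90 and Ngp at -8.53, and without mouse 2 Ltf was at -8.27. Cnn2 was at 3.59, 8.16 and 18.8 CPM against 11.2, 19.5 and 32.4 CPM. Genes of homing and adhesion belonged with these: of 19 chemokine receptors and adhesion genes 7 were lower past the fold threshold. Itgal, an integrin of leukocytes, was at 0.424, 1.302 and 20.0 CPM against 12.1, 22.8 and 66.1 CPM (log2FC -3.53, adjusted p = 1.1e-06), overlapping only through the library of mouse 10, without which the highest was 8.85 CPM. Itga4 was at -2.43, Cd44 at -2.66 and Cxcr4 at -1.90. Cybb, the oxidase subunit of phagocytes, was at 6.15, 13.7 and 71.8 CPM against 12.3, 41.5 and 77.7 CPM (log2FC -1.67, adjusted p = 4.9e-05), and its highest double-positive value was that of mouse 10, without which the log2FC was -1.86.

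**Figure D4:**
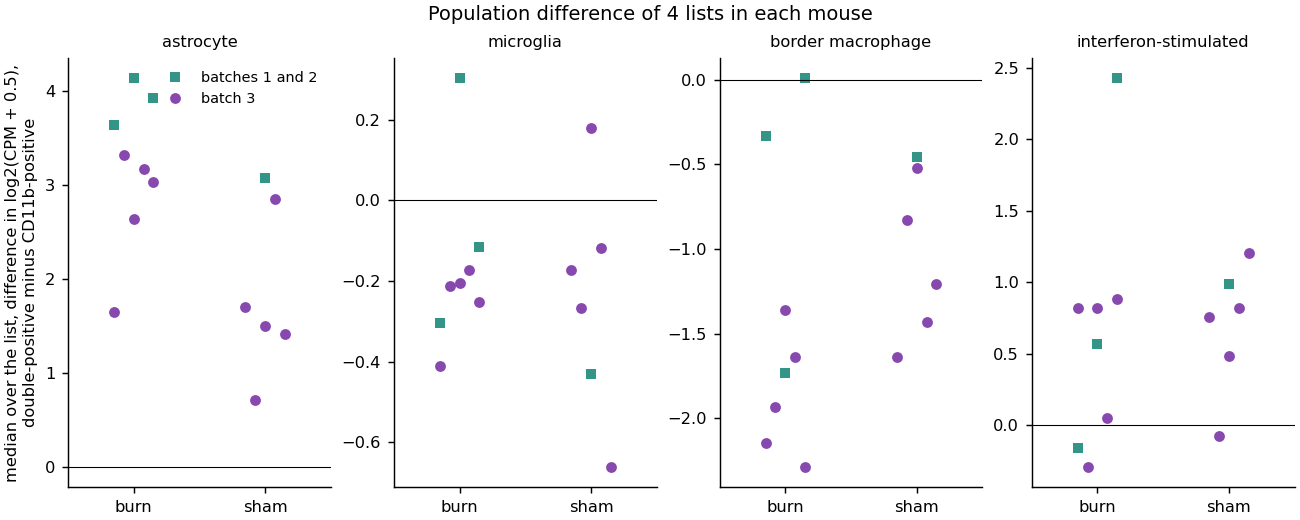
Population difference in each mouse, as the median over a list of the difference in log2(CPM + 0.5) between its double-positive and CD11b-positive library, for 8 burn and 6 sham mice, with squares for batches 1 and 2 and circles for batch 3. The astrocyte list lies above 0 in all 14 mice (0.71 to 4.14), the microglial list below 0 in 12, and the interferon-stimulated list above 0 in 11, with mouse 10 at 2.43.

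Interferon-stimulated genes were higher in the double-positive libraries as a group. Usp18, a negative regulator of interferon signalling, was at 6.48, 8.28 and 23.4 CPM against 1.85, 4.24 and 7.41 CPM. The ranges overlapped, and it was higher in 13 of 14 mice (log2FC 1.16, SE 0.22, adjusted p = 0.00081). Ifit1 (ENSMUSG00000034459), a sensor of foreign RNA, was at 2.29, 4.53 and 22.7 CPM against 0.501, 1.93 and 5.82 CPM, higher in 12 mice (log2FC 1.23, SE 0.29, adjusted p = 0.0051). Of 29 measured members, 6 were higher past the fold threshold (Ifit1, Usp18, Oasl2, Oas1a, Oas2 and Rtp4), 20 were higher at any fold and 0 were lower, with a median log2FC of 0.75. Reads of Oas1a and its near copies, among them Oas1g, may be shared, and so may those of Ifit3 and Ifit3b.

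Promoter sequences of 3 members, Ifit1, Oas1a and Isg15, are shown because they carry repeats of the element through which interferon acts on this group. They are the 120 bases before the annotated start of the gene, 5′ to 3′ along its own strand, from RefSeq on GRCm38.p6, at chr19:34640769-34640888 (+ strand), chr5:120907526-120907645 (- strand) and chr4:156200819-156200938 (- strand). Capitals mark each match to GAAA, 2 bases of any kind and GAAA again, or to the same with TTTC, which is the motif on the other strand. Matches may overlap.
Ifit1: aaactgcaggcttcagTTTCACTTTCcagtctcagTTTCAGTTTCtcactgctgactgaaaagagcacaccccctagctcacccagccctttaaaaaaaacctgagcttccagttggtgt
Oas1a: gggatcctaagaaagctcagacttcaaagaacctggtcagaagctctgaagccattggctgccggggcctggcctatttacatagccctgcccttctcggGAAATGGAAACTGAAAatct
Isg15: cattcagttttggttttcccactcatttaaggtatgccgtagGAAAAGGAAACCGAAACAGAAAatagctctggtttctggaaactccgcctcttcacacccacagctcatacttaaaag

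The matches in Ifit1 began 104 and 85 bases before the start, and those in Oas1a at 20 and 14 bases. Isg15 held 3 overlapping matches that began between 78 and 66 bases before its start. In the 250 bases before the start, 10 of the 20 list members with a promoter in the table held a match (50%), against 936 of all 27025 genes with one (3.46%) and 978 of all 32851 promoters (2.98%), 2 of 12 genes of MHC class I presentation and 1 of 25 immediate early genes. Isg15, a ubiquitin-like protein gene, was at 2.33, 5.67 and 13.3 CPM against 1.29, 2.34 and 7.15 CPM (log2FC 0.95, adjusted p = 0.024), and 10 of 14 mice were higher. A match is a description of the sequence and not of binding.

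Ifi44, the member with the largest log2FC at 2.10, did not pass (adjusted p = 0.11) but did without mouse 16 (0.042) or 21 (0.049). Oasl2, of the oligoadenylate synthetase family, was at 9.24, 20.2 and 54.3 CPM against 3.83, 10.3 and 21.0 CPM (log2FC 1.11, adjusted p = 0.00081), with overlap. Oas1a was at 3.76, 13.6 and 25.7 CPM against 2.47, 5.72 and 12.6 CPM (log2FC 1.09), Oas2 at a log2FC of 1.22 and Rtp4, a chaperone of receptors, at 1.01. Xaf1, a factor of cell death, was higher in all 14 mice at 13.6, 20.7 and 38.2 CPM against 7.04, 12.0 and 20.8 CPM (log2FC 0.74, adjusted p = 1.1e-05). Mx2, a restriction factor of viruses, was at 0.84. Ifi207, the 1 member with a negative log2FC, was at 6.22, 18.5 and 37.1 CPM against 4.42, 26.2 and 49.9 CPM and did not pass (adjusted p = 0.17). The list summed to 551, 779 and 1151 CPM in the double-positive, 409, 564 and 712 CPM in the CD11b-positive, 145, 231 and 309 CPM in the ACSA2-positive and 666, 1762 and 2143 CPM in the 9 CaMKII-positive libraries, the last of which also came from the injected motor cortex. Astrocyte and endothelial markers in the CaMKII-positive libraries had median sums of 33029 and 7531 CPM, against 2932 and 208 CPM in the double-positive ones. The part of this make-up in their interferon-stimulated sums was not tested.

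How many interferon-stimulated members passed depended on the mice. Without mouse 10, whose Usp18 and Ifit1 levels were the highest of the 28 libraries, 2 of the 29 passed both thresholds (background 2.29%) and 19 were higher at any fold (background 5.6%). Over the 14 fits that leave out 1 mouse, 2 to 9 passed both thresholds and 16 to 24 at any fold. Usp18 fell just short of the fold threshold without mouse 10, Oasl2 without mouse 10 (log2FC 0.95) or 19 (0.99), and Oas1a without mouse 10 (0.97) or 19 (0.95). Rtp4 fell short without any 1 of mice 10, 15, 17, 19, 20 and 22 (0.92 to 0.98), and Isg15 passed without any 1 of mice 2, 7, 16, 17 and 21 (1.01 to 1.07). Sham mice alone gave 9 of 29 (background 1.02%) and burn mice alone 0 (background 2.1%), where 2 were higher at any fold (background 2.5%). The list's median log2FC was 0.85 in sham and 0.59 in burn mice, Ifit1 was at 1.28 and 1.18, and the population by treatment test called none of the members. Neuronal and astrocytic RNA were higher in the same libraries, and their part in the group's difference was not tested. Cxcl10, an interferon-induced chemokine, was at 6.79, 11.8 and 25.2 CPM against 1.62, 5.74 and 17.2 CPM (log2FC 1.08, adjusted p = 0.0016), and it fell short of the fold threshold without mouse 10 (0.96), 13 (0.96) or 20 (0.98). Among the 746 higher genes, 76 were below the 28-library mean in ACSA2-positive cells. Of these, 51 were also called without mouse 10, and 19 had their highest double-positive level in that mouse.

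Genes of MHC class I presentation were partly higher. H2-Q7, a non-classical class I gene, was at 61.6, 398 and 1612 CPM against 40.7, 144 and 405 CPM. Its highest levels were in the double-positive libraries of mice 18, 19 and 20 (1182, 980 and 1612 CPM), and it was higher in 12 of 14 mice (log2FC 1.47, SE 0.23, adjusted p = 8.7e-05). Its reads may be shared with H2-Q6, a near copy. Of 14 members 2 were higher past the fold threshold, the other being Nlrc5, the transactivator of class I genes, at 22.9, 46.6 and 144 CPM against 16.8, 24.0 and 106 CPM (log2FC 1.00, adjusted p = 0.0012). The background of higher genes past the fold threshold was 2.65%. At any fold 6 were higher (background 5.35%) and 1 lower (background 7.08%). The classical genes H2-K1 (log2FC 0.38) and H2-D1 (0.45) were among the former, and Tapbp, a chaperone of peptide loading, was the latter (-0.30). Without mouse 10, or without any 1 of mice 15, 18, 19, 20 and 24, Nlrc5 was below the fold threshold at 0.89 to 0.95.

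MHC class II genes were lower, but mice differed. H2-Aa (ENSMUSG00000036594), a class II chain, was at 1.97, 13.4 and 147 CPM against 32.7, 67.9 and 305 CPM (log2FC -2.40, SE 0.56, adjusted p = 0.0048). The double-positive libraries of mice 10, 18 and 19 held 147, 118 and 135 CPM, above their CD11b-positive partners, and mouse 20 held 77.0 CPM against 82.2 CPM. In the other 10 mice the double-positive library was at 1.97 to 21.7 CPM. Over the fits without 1 mouse the log2FC of H2-Aa ran from -2.71 (without mouse 19) to -2.12 (without mouse 21). Cd74, the invariant chain, was at 17.4, 71.0 and 417 CPM against 88.2, 186 and 827 CPM (log2FC -1.27, SE 0.38, adjusted p = 0.027), higher in mice 10, 18, 19 and 20. Ciita, the transactivator of the class, was at 0, 1.46 and 11.4 CPM against 3.83, 7.81 and 48.7 CPM (log2FC -2.92, adjusted p = 0.0019; -3.24 without mouse 10). Of 9 members 5 were lower past the fold threshold, with H2-Ab1 at -2.21 and H2-Eb1 at -2.66, and 4 or 5 in each of the 14 fits without 1 mouse. Cd74 missed the threshold without mouse 2, 16, 21 or 22 (adjusted p = 0.052, 0.065, 0.066 and 0.061). It was also not called without mouse as a block (log2FC -0.87, adjusted p = 0.14) or in sham mice alone (-0.64, adjusted p = 0.21). H2-DMa, which loads peptides onto class II, was at 52.2, 64.9 and 96.2 CPM against 57.2, 83.4 and 121 CPM (log2FC -0.38).

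The constant chain gene Ighg2c, chosen after its values were seen, was at 0 in 10 double-positive and 13 CD11b-positive libraries. It reached 14.7, 16.1 and 176 CPM in the double-positive libraries of mice 18, 19 and 20 and 9.72 CPM in the CD11b-positive library of mouse 18 (log2FC 6.10, adjusted p = 0.021). Without mouse 20 the log2FC was 2.32 (adjusted p = 0.27) and without mouse 19 it was 3.84 (adjusted p = 0.19). Without mouse 18 it was 10.90 (adjusted p = 1.5e-06). Reads of near-identical constant chain genes may be shared. Cxcl13, a chemokine that attracts B cells and was also chosen after its values were seen, was at 9.77 CPM in the double-positive library of mouse 20, at 4.37 and 3.95 CPM in those of mice 19 and 18, at or below 3.21 CPM in the other 11, and at 0 in 13 of 14 CD11b-positive libraries (log2FC 7.22, adjusted p = 4.9e-05; 8.44 without mouse 16).

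**Figure D5:**
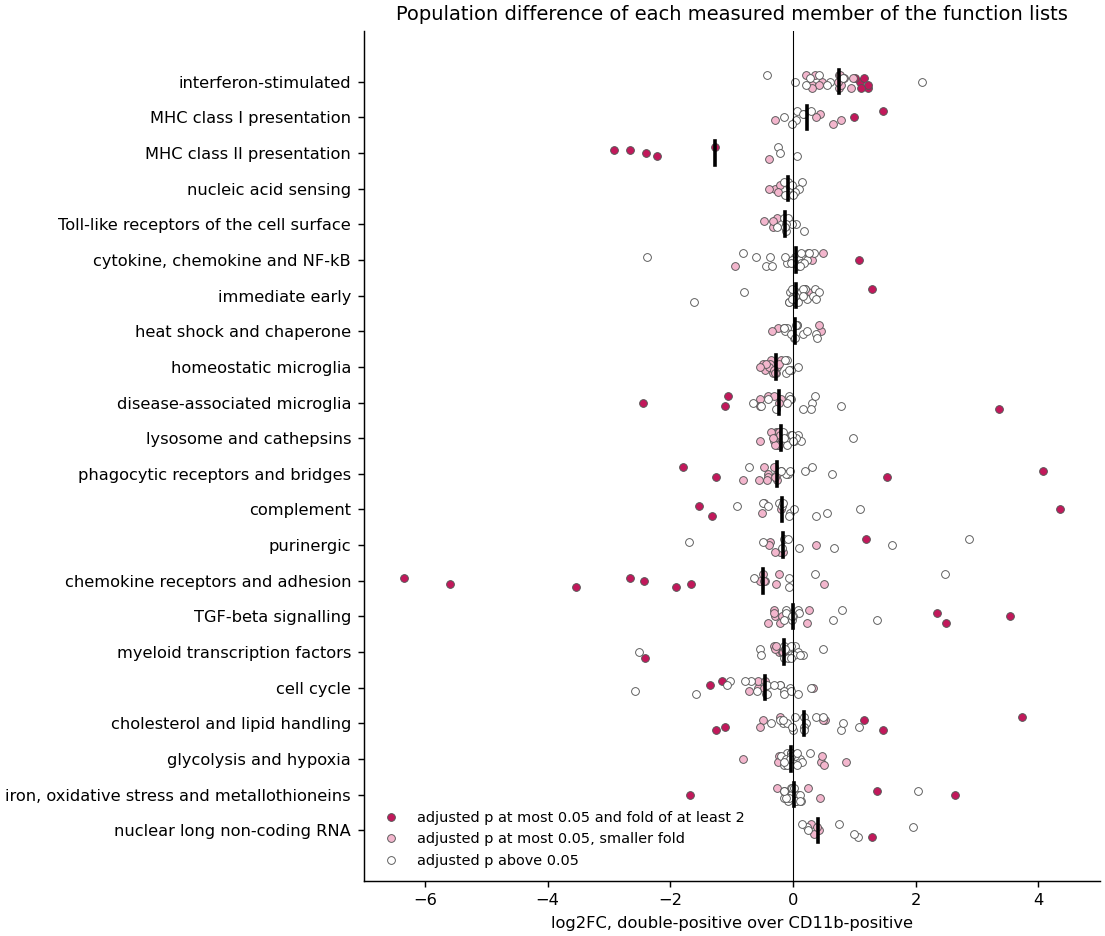
Population difference (log2FC, double-positive over CD11b-positive) of each measured member of 22 function lists, with a bar at the list's median and colour for the outcome of the test. The interferon-stimulated median lies at 0.75 and the MHC class II median at -1.27, while lysosomal and homeostatic members crowd just below 0 at medians of -0.20 and -0.28.

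Most other programmes of microglia differed little. Of 29 immediate early genes, which cell dissociation and neuronal activity both induce, 1 was higher past the fold threshold, Arc, at 1.23, 6.12 and 12.7 CPM against 0.585, 1.77 and 11.5 CPM (log2FC 1.29, adjusted p = 0.019), and the list's median was 0.06. Of 26 cytokine, chemokine and NF-kB genes 1 was higher (Cxcl10, against a background of 2.65%), with a median of 0.05. No member passed both thresholds among 18 heat shock and chaperone genes, 15 nucleic acid sensors, 14 genes of the Toll-like receptors of the surface or 24 genes of glycolysis and hypoxia. At any fold 4 sensors were lower (background 7.08%), among them Tlr9, the receptor for unmethylated DNA, at 98.3, 116 and 164 CPM against 116, 153 and 190 CPM (log2FC -0.39, adjusted p = 0.0011).

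Disease-associated genes moved unevenly. Of 23 members 3 were lower past the fold threshold (background 1.23%) and 1 was higher (background 2.65%). The latter was Gpnmb, which did not pass without any 1 of mice 10, 15, 17, 19, 20, 21, 23 and 24. Lgals3, a secreted galectin, was at 0, 0.935 and 5.48 CPM against 0.695, 4.77 and 13.4 CPM (log2FC -2.44, adjusted p = 0.0027). Lpl, a lipoprotein lipase, was at -1.11, and Igf1, a growth factor, at -1.06. Igf1 fell short of the fold threshold without mouse 7 (-0.95) or mouse 24 (-0.96), and Lpl without mouse as a block (-0.85). In sham mice alone both fell short of it (-0.87 for Lpl, adjusted p = 0.061, and -0.93 for Igf1, adjusted p = 0.027). Apoe, a lipid carrier of astrocytes, microglia and macrophages, was at 128, 224 and 355 CPM against 125, 343 and 587 CPM (log2FC -0.53, adjusted p = 0.0099). Cd36, a scavenger receptor for lipids, was at 2.41, 6.29 and 14.2 CPM against 3.03, 13.8 and 19.3 CPM (log2FC -1.25, adjusted p = 9.4e-05).

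Other lists held genes that sorted astrocytes express strongly. Among 23 phagocytic receptors and bridges, Megf10, an engulfment receptor of astrocytes, was at 4.10, 6.26 and 16.5 CPM against 0, 0.389 and 2.68 CPM (log2FC 4.08, adjusted p = 7e-05), with a median of 422 CPM in the ACSA2-positive libraries. Mfge8, a bridge to dying cells, was at 27.4, 50.6 and 112 CPM against 10.9, 16.0 and 24.2 CPM (log2FC 1.53), and neither gene's ranges overlapped. Ltbp1, which holds latent TGF-beta, was higher (log2FC 3.55), as were Tgfb3 and Itgb8 of 23 genes of this pathway (background 2.65%), while Ski, a repressor of it, was lower at any fold in all 14 mice (-0.41). Ltbp1 was not called in sham mice alone (2.09, adjusted p = 0.35) or in batches 1 and 2 alone (4.21, adjusted p = 0.15). Mt3, the metallothionein of brain, was at a log2FC of 2.65 and Fabp7, a fatty acid carrier of astrocytes and progenitors, at 3.73. Fabp7 was not called in batch 3 alone (3.24, adjusted p = 0.065), in batches 1 and 2 alone (4.35, adjusted p = 0.23) or in sham mice alone (3.08, adjusted p = 0.26). Vegfa was higher at any fold (0.87).

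Some cell cycle genes were lower. Mki67, a marker of dividing cells, was at 0.871, 3.35 and 6.87 CPM against 0.643, 12.3 and 30.9 CPM (log2FC -1.36, adjusted p = 0.020). The CD11b-positive libraries of mice 13, 15 and 19 lay at 0.643 to 1.15 CPM, below their double-positive partners, and the other 11 at 6.27 CPM or above. Of 27 cell cycle genes 2 were lower past the fold threshold (Mki67 and Top2a; background 1.23%) and 9 at any fold (background 7.08%), with a median of -0.45. Top2a, the topoisomerase of dividing cells, was at -1.16 (adjusted p = 0.037) and missed the threshold in 8 of the 14 fits without 1 mouse (adjusted p up to 0.080). Ccnd1, the cyclin of cell cycle entry, was at 77.6, 98.5 and 169 CPM against 101, 158 and 205 CPM and lower in all 14 mice (log2FC -0.56, adjusted p = 5.7e-07). Of 24 myeloid transcription factors 1 was lower past the fold threshold (background 1.23%), Runx2, at 0, 0.403 and 3.59 CPM against 0.864, 2.50 and 7.03 CPM (log2FC -2.41).

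Among RNA classes, the 81 cytosolic ribosomal protein genes had a median log2FC of -0.12, with 12 lower at any fold (background 7.08%), and the 83 nuclear subunits of the respiratory chain a median of -0.02. Mitochondrial messenger RNA took 0.405 to 0.951% of counts in the double-positive and 0.324 to 0.742% in the CD11b-positive libraries. All 12 nuclear long non-coding RNAs had a positive log2FC and 5 were higher at any fold (background 5.35%), with Snhg11 past the fold threshold (background 2.65%), though not without any 1 of mice 10, 15, 19, 21, 22, 23 and 24. Malat1, a nuclear transcript, was at 10119, 15959 and 21701 CPM against 6604, 13352 and 17086 CPM (log2FC 0.34, adjusted p = 0.014).

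Whether the population difference depended on the injury was asked with the population by treatment term. It called 2 of 28169 genes (0.0071%), and 915 had an unadjusted p under 0.05. Fermt2, which encodes an adaptor of integrins, was at 8.12, 13.97 and 26.3 CPM in double-positive and 0.553, 1.02 and 2.55 CPM in CD11b-positive libraries of burn mice. In sham mice it was at 5.77, 8.14 and 13.4 CPM and 2.43, 4.14 and 7.32 CPM, so that the gap was wider in burn mice. The term was 2.44 on the log2 scale (SE 0.43, adjusted p = 0.048). Gnao1, a G protein subunit of neurons and astrocytes, was at 27.3, 51.9 and 61.1 CPM against 3.49, 5.31 and 10.2 CPM in burn mice, and at 18.2, 30.6 and 55.2 CPM against 5.25, 12.2 and 18.0 CPM in sham mice (term 1.64, SE 0.29, adjusted p = 0.048). Both calls were lost without any 1 of mice 2, 15, 16, 17, 19, 21, 23 and 24 (adjusted p 0.065 to 0.34), and the number of genes called ran from 0 to 17 over these fits, with 17 without mouse 20. Both had their highest mean in the ACSA2-positive libraries (502 and 2257 CPM), and the median difference of the astrocyte list was 3.24 in burn and 1.60 in sham mice. That list's part in the calls was not tested. Both calls were also lost without the replicate block (adjusted p = 0.23 for Fermt2 and 0.29 for Gnao1), with library size only (0.098 for both) and with the filterByExpr filter on low counts (0.46 for both). With a population by batch term in the same fit, an alternative chosen after the data were seen, the terms were 2.14 (adjusted p = 0.013) and 1.38 (adjusted p = 0.0065). Of the 8 burn mice 3 were of batches 1 and 2, against 1 of the 6 sham mice. Within batch 3 the astrocyte list's medians were 3.03 in burn and 1.50 in sham mice.

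The population difference also varied with sequencing batch. A term for batch 3 against batches 1 and 2 called 45 genes, all with a smaller or more negative difference in batch 3 (0.16% of 28169 genes), and 1233 had an unadjusted p under 0.05. Over the fits without 1 mouse the number ran from 18 (without mouse 2) to 215 (without mouse 13). Ptprz1, a receptor phosphatase of astrocytes and precursors, differed by 2.39 ± 0.88 log2(CPM + 0.5) in batch 3 (SD, n = 10) and by 4.62 ± 0.52 in batches 1 and 2 (SD, n = 4), a term of -2.36. Grin2c, a glutamate receptor subunit, had a term of -3.11 and the long non-coding Gm3764 one of -2.77, and both were lower in CD11b-positive libraries of batches 1 and 2 (0.126 to 1.25 and 0.960 to 1.64 CPM) than of batch 3 (1.58 to 7.60 and 2.58 to 18.8 CPM). Gm3764 was not called with the filterByExpr filter (term -2.80, adjusted p = 0.072). Pltp, which transfers phospholipids, was lower in double-positive libraries of batch 3 (6.77 to 11.5 against 14.6 to 24.0 CPM) and ran from 8.78 to 84.8 against 6.04 to 13.0 CPM in batches 1 and 2 (term -2.64, adjusted p = 0.0012; -1.99 without mouse 10). Thsd4 and Phldb2 had terms of -9.90 and -8.94, with medians of 0 CPM in the CD11b-positive libraries of batches 1 and 2. Thsd4 was not called without mouse 10 (term -10.87, adjusted p = 0.15) or without mouse as a block (term -8.11, adjusted p = 0.090).

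The double-positive library of mouse 10 carried more RNA of several other cell types. Its oligodendrocyte markers summed to 462 CPM, against at most 151 CPM in the other 13 double-positive libraries, its precursor markers to 250 CPM against at most 67.7 CPM, and its endothelial markers to 1070 CPM against at most 576 CPM. Monocyte and neutrophil markers reached 68.4 CPM there against at most 21.2 CPM. Slc47a1, an organic cation exporter chosen after its values were seen, was at 58.7 CPM in that library and at 3.72 CPM or less in the other 13 (log2FC 3.43, adjusted p = 0.031). It was not called when any 1 of mice 2, 10, 13, 15, 17, 20 and 23 was left out, and its log2FC was 3.48 without mouse 10 (adjusted p = 0.070). Without mouse 10, 637 genes were higher (2.29%) and 386 lower (1.39%), and 932 of these calls were shared with the 1092 of all 14 mice.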

How the data were processed

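The deposited tables hold gene-level counts, 1 column per library; per the labels the authors trimmed reads with fastp and aligned them with STAR, and the strand setting of counting is not given in the sources used here. Separate tables of log2-like transformed values were not used. Groups came from the sample titles, and batches from the study's table of animals. Libraries were scaled by TMM (edgeR 4.0.16, R 4.3.3, limma 3.58.1), genes with under 10 counts in total were left out, and the quasi-likelihood test was fitted with mouse as a block, Benjamini-Hochberg adjustment and an absolute log2FC of at least 1. SE is the log2FC over the square root of F. CPM used raw library totals, and per-mouse differences used log2(CPM + 0.5). DESeq2 1.42.0 was an alternative. Where a gene was at 0, a limit of 3 counts was applied, which covers counting error only. Equal title numbers mark the same animal; residuals of the same mouse correlated with a median r of 0.026 over 13 mice. Fits were tested on simulated data. Members and gene lists were chosen with earlier results of these data known. Named genes were Csf1r and P2ry12, the 12 largest log2FCs in each direction among called genes of the same sign in all 14 mice a mean of at least 10 CPM and a symbol other than a Gm number or clone name (also among genes lower in ACSA2-positive libraries), list members, and the 6 smallest p of each interaction; a few of these are not reported here.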

Additional observations from a re-analysis of the deposited data

Results flagged for a closer look

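Of 218 groups of values tested for a mouse far from the others of its treatment, 22 held one. Chance gives about 1 in 20 groups, a rate against which the count is not read here, since some of the genes, Ighg2c and Slc47a1 among them, were chosen after their values were seen. Values are differences in log2(CPM + 0.5), double-positive minus CD11b-positive.

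Mouse 10 stood apart from the other burn mice in Usp18 (3.22, where the next was 1.38), Slc47a1 (6.89), Neu4 (3.57), Clec12a (0.59), S100a9 (-1.41), Ltf (-1.68) and Ngp (-1.55). Mouse 20 stood apart in Ighg2c (8.47) and Luzp2 (2.30), mouse 21 in Mki67 (-4.27) and Top2a (-3.37), and mouse 7 in Mx2 (-1.33).

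Among sham mice, mouse 19 stood apart in Ighg2c (5.06), Oasl2 (2.57), H2-K1 (1.258), Malat1 (1.53), Glul (-0.29) and Retnlg (0.00). Mouse 13 stood apart in F13a1 (0.20) and in the total count of its CD11b-positive library (47473226), mouse 16 in Lgals3 (-4.27) and mouse 17 in Neu4 (2.03).

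The population difference varied with treatment in Fermt2 (2.44) and Gnao1 (1.64), and with batch in Pltp (-2.64), Thsd4 (-9.90), Ptprz1 (-2.36), Phldb2 (-8.94), Grin2c (-3.11) and Gm3764 (-2.77), each by the edgeR term for the difference itself.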

How the results depend on the processing

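The 1092 genes that differed between the populations became 3502 with no minimum fold (43.1% of them higher, against 68.3%), 440 when tested against a log2FC of 1, 237 in batches 1 and 2 alone and 432 in sham mice alone; without 1 mouse they ran from 948 to 1123. Without the replicate block 1627 were called and by DESeq2 1631, of which 969 and 999 were shared with the 1092. The 2 genes of the treatment term became 36 by DESeq2, 60 in batch 3 alone and 8 with a population by batch term, which was chosen after seeing the data, and 0 without the replicate block, with library size only and with filterByExpr; without 1 mouse, 0 to 17. The 45 genes of the batch term became 189 by DESeq2, 98 without the replicate block and 6 with filterByExpr; without 1 mouse, 18 to 215. Of 115 genes named with a value, 108 kept their sign in every alternative and 43 also their side of the threshold. Signs turned with library size only in Trem2 (0.015) and Glul (0.016), in batch 3 alone in Glul (0.0027), in sham mice alone in Gfap (-0.050) and Ifi207 (0.015), and in batches 1 and 2 alone in Snap25 (-0.17), Apoe (0.12), Ifi207 (0.12) and Pecam1 (0.11). The cause was not tested. At these depths, levels under 0.0626 to 0.212 CPM, depending on the library, cannot be told from 0.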

Other observations

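The double-positive libraries of burn mouse 11 and sham mouse 12, which had no CD11b-positive partner here, held Csf1r at 7536 and 7003 CPM, P2ry12 at 2576 and 2445 CPM, and Gja1 at 84.0 and 91.2 CPM. The CD11b-positive library of mouse 8 held Csf1r at 9067 CPM and P2ry12 at 2558 CPM. Its double-positive library held 331215 counts in all, with Csf1r at 3.02 CPM and P2ry12 at 0.

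Mouse 3 had S100a8 at 769.9 CPM in its CD11b-positive library, and its monocyte and neutrophil markers summed to 2492 CPM, where the 14 CD11b-positive libraries compared lay between 34.5 and 255 CPM. In its double-positive library that sum was 21.7 CPM.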
